A study of Mus musculus with 49 samples.

Results

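Sst, Npy, Nos1, Pvalb, Lhx6, Th, Kit, Vip, Cck and Calb2 mark the GABA interneurons of the striatum and its neighbours. The group was set by name, and all 10 genes were present among the 52636 genes of the count table, which holds 47 libraries of sorted or affinity-purified medium spiny neuron (MSN) RNA. MSNs are the GABA projection neurons of the striatum, and interneurons are a small minority of cells beside them. The interneurons arise from other progenitors than MSNs do, and each class is known by a peptide, an enzyme or a calcium-binding protein. A class of low-threshold-spiking cells makes the peptides somatostatin (Sst) and neuropeptide Y (Npy) together with neuronal nitric oxide synthase (Nos1), while fast-spiking cells hold parvalbumin (Pvalb). Lhx6 is a transcription factor of both. Th encodes tyrosine hydroxylase, the rate-limiting enzyme of catecholamine synthesis, found in a class of striatal interneurons and in the dopamine axons that fill the region. Calb2 encodes calretinin, and Vip and Cck encode the peptides vasoactive intestinal peptide and cholecystokinin. Cck is also made by many cortical pyramidal cells, and Kit encodes a receptor tyrosine kinase that some interneurons carry.

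The RNA came from the nucleus accumbens (NAc), the ventral striatum, of untreated C57BL/6J mice, with a unique mouse behind each sample and ages not given in the sources used here. Whole cell-FACS sorted fresh, papain-dissociated cells with a cytoplasmic fluorophore driven by the Drd1 or Drd2 promoter (8 D1 and 6 D2 libraries, male). Nuclear-FACS sorted nuclei from frozen tissue of Drd1-cre or Drd2-cre mice, in which a Thy1-loxPSTOPloxP-EGFP-F transgene put GFP on the nucleus (6 D1 and 5 D2, male). RiboTag affinity purification pulled down ribosomes whose protein Rpl22 carried a Cre-dependent HA tag, from fresh tissue (6 D1 and 6 D2 labelled male, 5 D1 and 5 D2 labelled female). Any cell in which these promoters were or had been active could carry the label. In bulk samples like these, fewer cells of a type and less RNA per cell cannot be told apart.

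The 6 genes below were chosen by their results in the comparisons of D1 and D2 libraries, and sequence just before the start is shown for each. A link between this sequence and the levels was not tested. RefSeq (GRCm38.p6) gave 13 start sites for 9 of the 10 genes, with none for Calb2. Capitals mark matches on either strand to the cAMP response element TGACGTCA, to its shorter form TGACG and to the TATA box TATAAA. For Sst and Th, 30 bases around the match are given, and for the others the 250 bases before the start, each read 5′ to 3′ on the gene's own strand, so that a match on the other strand shows in capitals as its reverse complement. Sst (chr16:23890874-23890903, minus strand) and Th (chr7:142900022-142900051, minus strand) hold the full element, starting 48 and 45 bases before the start. TGACGTCA contains the short form on both strands. The Vip window (chr10:5638968-5639217, plus strand) holds the short form 79 bases before the start and a TATAAA at 157, 147 and 30 bases. The Cck window (chr9:121495695-121495944, minus strand) holds the short form at 47 bases, the Nos1 window (chr5:117866589-117866838, plus strand) at 130 bases, and the Npy window (chr6:49822460-49822709, plus strand) holds none of these letters. The RefSeq starts used for Sst, Nos1 and Th lie inside the gene spans given below. Their windows therefore lie partly (Sst) or wholly (Nos1 and Th) within the span and do not precede its first base.
Sst: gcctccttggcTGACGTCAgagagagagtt
Th: cagaggggcttTGACGTCAgcctggccttt
Vip: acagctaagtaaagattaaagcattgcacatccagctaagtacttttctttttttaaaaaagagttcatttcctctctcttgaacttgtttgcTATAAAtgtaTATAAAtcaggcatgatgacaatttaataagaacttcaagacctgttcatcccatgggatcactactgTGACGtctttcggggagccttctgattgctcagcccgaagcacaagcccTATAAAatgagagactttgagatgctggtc
Cck: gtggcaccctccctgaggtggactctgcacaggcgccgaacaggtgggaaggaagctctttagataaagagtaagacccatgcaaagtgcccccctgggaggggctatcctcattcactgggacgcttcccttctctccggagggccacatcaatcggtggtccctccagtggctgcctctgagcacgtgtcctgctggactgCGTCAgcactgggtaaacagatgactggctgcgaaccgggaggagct
Nos1: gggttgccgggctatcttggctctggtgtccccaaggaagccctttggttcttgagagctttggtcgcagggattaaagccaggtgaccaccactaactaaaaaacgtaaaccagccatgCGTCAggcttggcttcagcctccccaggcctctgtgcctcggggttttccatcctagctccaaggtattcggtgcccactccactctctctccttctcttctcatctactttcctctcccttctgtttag
Npy: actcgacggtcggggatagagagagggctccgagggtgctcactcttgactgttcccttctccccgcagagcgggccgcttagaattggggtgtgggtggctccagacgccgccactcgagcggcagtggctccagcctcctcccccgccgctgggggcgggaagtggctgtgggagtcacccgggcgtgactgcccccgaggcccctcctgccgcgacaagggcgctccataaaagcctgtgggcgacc

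Among 32851 mouse promoters of the same length, 508 (1.55%) held TGACGTCA, 5836 (17.8%) held TGACG and 4063 (12.4%) held TATAAA. A match describes these letters only, and the windows of Pvalb, Lhx6 and Kit held none of the searched letters.

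Each gene was counted over its whole body, introns included, and without regard to strand. The spans on GRCm38 run from 1386 bases for Sst (chr16:23889573-23890958) to 177809 bases for Nos1 (chr5:117781032-117958840). Nos1 shares its span with a pair of other annotated genes, and Lhx6 (chr2:36081953-36105408) with another, so their counts may include reads of these neighbours. The other genes lie at chr6:49822710-49829507 (Npy), chr15:78191114-78206400 (Pvalb), chr7:142892752-142931128 (Th), chr5:75574916-75656722 (Kit), chr10:5639218-5647617 (Vip), chr9:121489824-121495694 (Cck) and chr8:110137502-110168210 (Calb2), all protein coding. Values are TMM-normalised counts scaled to a common library size (CPM) unless stated, and they are compared between genes only per kilobase of exon.

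The libraries held 3701255 to 68777008 counts. Drd1 and Drd2 followed the labels in every comparison under the filters of the study, but the nuclear D2 libraries stood apart. The MSN gene Ppp1r1b lay between 5.87 and 24.3 CPM there against 33.0 to 269 CPM in nuclear D1 libraries, and the D2-MSN gene Penk was lower, not higher, in them (log2 fold change −2.44). All 5 nuclear D2 libraries shared this, so no nuclear comparison could be made without them. In RiboTag libraries, 6 of the 12 labelled male (4 D1 and 2 D2) had more Xist counts than counts on 4 Y-linked genes together, as did all 10 labelled female. The D1 and D2 results of the 10 genes in libraries labelled male are therefore given with and without those 6, and results of other genes only with them. RiboTag counts were also concentrated, with 84.9 to 88.3% of a library's counts on its 10 highest genes.

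The methods differed widely in how far the interneuron genes stood above background. Background was estimated in each library from 1278 olfactory and vomeronasal receptor genes, which neurons of the NAc should not use, as counts per kilobase, and multiplied by each gene's span. In the whole cell libraries the median ratio of observed to background count lay between 0.83 for Vip and 2.68 for Cck, and Sst and Cck were the only genes to exceed 5 in any library, in 1 of 14 each. Sst, with 0 to 20 counts a library, was not detected in 3 of the 6 whole cell D2 libraries. A count of 0 there allows a level of up to 0.145 to 0.276 CPM, from 3 counts of the library total, and floors of this kind cover counting error only. The 10 genes together summed to 1.73 to 2.67 times background in these 14 libraries.

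Nuclear libraries differed by label on this scale, and so did the background itself. On library totals it was 0.00415 to 0.172 CPM per kilobase in nuclear D1 and 0.257 to 0.413 in nuclear D2 libraries, without overlap. The ratios of these libraries carry this gap as well as that of the counts. Sst stood 32.7 to 2153 times above background in the 6 nuclear D1 libraries and 6.05 to 16.9 times in the 5 nuclear D2 libraries. Npy stood 4.89 to 243 times above it in nuclear D1 and 2.09 to 3.32 times in nuclear D2. RiboTag libraries had almost no background, at most 0.000456 CPM per kilobase, and all 10 genes rose far above it in most libraries. There the Sst ratio was 3952 to 37388, that of Npy 397 to 2958, that of Cck 172 to 3882 and that of Nos1 91.7 to 301. The lowest were Th at 6.24 to 58.5 and Vip at 0 to 279, with Vip over 5 in 18 of 22 libraries.

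**Figure D1:**
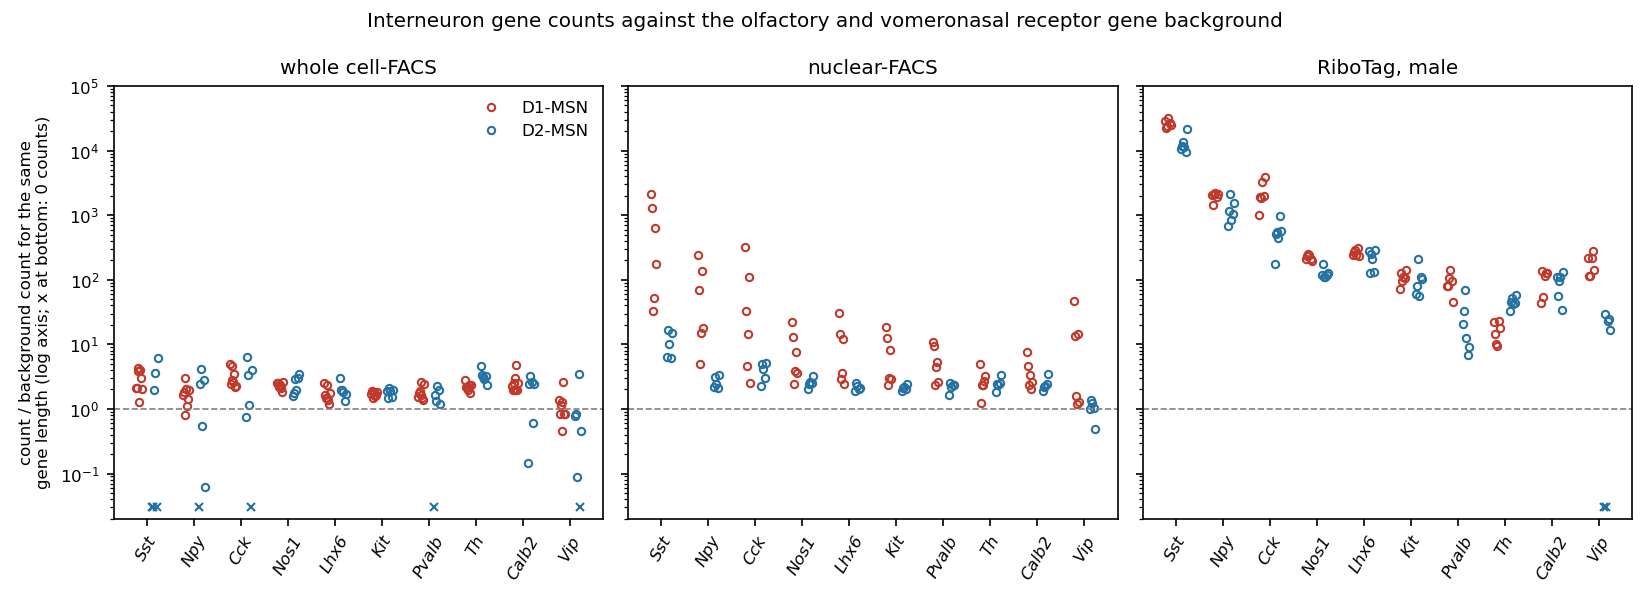
Count of each interneuron gene divided by the background count for a gene of its length (log axis, dashed line at 1, crosses at the bottom for 0 counts), with 1 circle a library, D1 in red and D2 in blue, in a panel each for whole cell-FACS, for nuclear-FACS and for the RiboTag libraries labelled male. Whole cell libraries lie near the dashed line, at medians of 0.83 to 2.68, nuclear Sst reaches 2153 in D1 and at most 16.9 in D2, and RiboTag Sst lies far above all of them.

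The order of the genes by level per exonic kilobase followed the same divide. In RiboTag D1 libraries labelled male, Sst was highest at 12.1 ± 1.24 CPM per kilobase (SD, n = 6). Npy followed at 5.61 ± 0.690, Cck at 2.43 ± 0.937 and Nos1 at 0.853 ± 0.120, and no neighbours among these 4 overlapped between libraries. From Calb2 at 0.422 down through Pvalb, Lhx6, Kit and Vip to Th at 0.0628, each gene overlapped the next, so their order is not resolved. Sst and Npy also led in D2 libraries labelled male, at 6.22 ± 1.65 and 3.70 ± 1.56 with overlap, and Vip was last at 0.00909 ± 0.00760. In nuclear D1 libraries the same 4 genes led, with Sst at 31.7 ± 19.9 (SD, n = 6) and Npy at 25.4 ± 17.1, but every neighbour overlapped. In nuclear D2 libraries Calb2, Nos1 and Th led at 7.61, 7.21 and 7.16, and in whole cell D1 libraries the same 3 genes led at 8.70, 7.65 and 7.40, with Sst second to last at 1.02. Counts over introns enter these levels, and the 3 genes that led there have long spans for their exons.

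D1- and D2-MSNs were first compared in RiboTag libraries, where the study looked for RNA on ribosomes of each cell type. The peptide and nitric oxide genes of the low-threshold-spiking class were lower in D2 libraries of both sexes. Sst in libraries labelled male was 7.60 CPM in the lowest, 8.84 in the median and 9.89 in the highest D1 library, against 2.96, 4.39 and 6.47 in D2 libraries. The groups did not overlap, and the log2 fold change of D2 against D1 was −0.95 ± 0.116 (SE, edgeR quasi-likelihood adjusted p = 2.25e-06). Libraries labelled female read 7.15, 11.3, 13.3, 6.57 and 9.81 CPM in D1 and 1.58, 7.04, 3.99, 2.52 and 4.78 CPM in D2. A single D2 library, number 2, reached into the D1 range, and the log2 fold change was −1.31 ± 0.251 (edgeR adjusted p = 0.00253).

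Nos1, whose product makes the gas nitric oxide, was lower in D2 libraries as well. In libraries labelled male it ranged over 7.56, 9.24 and 11.3 CPM (lowest, median, highest) in D1 and 4.91, 5.37 and 6.86 CPM in D2. In libraries labelled female D1 held 9.30, 12.6, 13.8, 9.75 and 11.7 CPM and D2 5.11, 7.38, 4.35, 5.95 and 5.39 CPM. Neither sex showed an overlap. Nos1 failed the FPKM filter of the study, which divides by the long gene span, and was tested without it, at −0.77 ± 0.0949 in males (edgeR adjusted p = 3.82e-06) and −1.03 ± 0.126 in females (5.46e-05).

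Npy is made by the same cells. In libraries labelled male, D1 held 2.49, 3.16 and 3.64 CPM (lowest, median, highest) and D2 1.41, 1.79 and 3.74 CPM. D2 library number 3 lay above every D1 library, and the other D2 libraries lay below every D1 library. The log2 fold change was −0.57 ± 0.176 (edgeR adjusted p = 0.0409). In libraries labelled female D1 held 2.79, 3.43, 5.17, 2.10 and 3.16 CPM and D2 0.779, 1.71, 2.15, 0.858 and 2.97 CPM, at −0.99 ± 0.271 (adjusted p = 0.0387). Both Npy calls rested on single libraries. In males the call was lost without any of D1 numbers 3 to 6 or D2 numbers 1, 2, 4, 5 and 6 (edgeR adjusted p from 0.0555 to 0.118). In females it was lost without D1 number 2, 4 or 6 or D2 number 1, 2 or 5 (0.0595 to 0.115). Under DESeq2 neither call was made (adjusted p = 0.105 and 0.187), and the female call was also lost in edgeR without the FPKM filter (−0.98, adjusted p = 0.0786) and with summed exons as the length (0.0784).

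Cck and Vip had the largest fold changes of the 10 genes in both sexes. Cck in libraries labelled male was 1.48, 2.84 and 4.98 CPM (lowest, median, highest) in D1 and 0.336, 0.703 and 1.68 CPM in D2. The highest D2 library passed the lowest D1 library, and the log2 fold change was −1.95 ± 0.265 (edgeR adjusted p = 1.22e-05). Libraries labelled female held 1.01, 1.91, 4.46, 1.20 and 1.58 CPM in D1 and 0.292, 0.457, 0.634, 0.312 and 0.504 CPM in D2. These groups did not overlap, at −2.20 ± 0.357 (adjusted p = 4.66e-04). Markers of glutamatergic neurons moved the same way as Cck: 4 of 5 were tested without the FPKM filter, 4 were lower in D2 libraries labelled male and 3 in those labelled female. Their summed level was 19.3 to 48.3 CPM in male D1 against 1.51 to 12.5 CPM in male D2 libraries, and 13.99 to 40.8 against 2.24 to 7.99 CPM in females. The vesicular glutamate transporter Slc17a7, the defining marker, was 13.6 to 33.3 against 0.673 to 7.90 CPM in males, and none of the 5 markers was at 0 throughout a group. Their part in the result was not tested.

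Vip rested on few reads, almost all of them in D1 libraries. In libraries labelled male it held 7 to 16 counts in D1 and 0 to 2 in D2, or 0.246, 0.326 and 0.567 CPM (lowest, median, highest) against 0, 0.0374 and 0.0610 CPM. In libraries labelled female it held 0.337, 0.562, 0.266, 0.360 and 0.330 CPM in D1 and 0, 0.0305, 0, 0.0260 and 0.0796 CPM in D2. Neither sex showed an overlap. Vip was too low for both filters. Without any filter its log2 fold change was −3.40 ± 0.541 in males (edgeR adjusted p = 3.97e-08) and −3.66 ± 0.579 in females (5.05e-08). Such unfiltered adjusted p-values, here and for Th and Pvalb below, cannot be compared with those of filtered fits. An exact permutation test of the difference in mean CPM, two-sided and run for all 10 genes in 4 comparisons (40 tests), gave 0.00216 in males and 0.00794 in females, the smallest values these group sizes allow.

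In RiboTag libraries Th was the only one of the 10 genes called higher in D2, without any filter and only in libraries labelled male. The difference between the sexes did not pass (unfiltered −0.87 ± 0.535, edgeR adjusted p = 0.802). The Th level in libraries labelled male was 0.0778, 0.145 and 0.213 CPM (lowest, median, highest) in D1, from 3 to 7 counts, and 0.309, 0.455 and 0.520 CPM in D2, from 7 to 21 counts. The groups did not overlap, and the unfiltered log2 fold change was +1.61 ± 0.366 (edgeR adjusted p = 6.02e-04; exact permutation p = 0.00216). In libraries labelled female D1 held 0.153, 0.140, 0.266, 0.420 and 0.0944 CPM and D2 0.341, 0.427, 0.476, 0.208 and 0.292 CPM, with overlap and no call (+0.74 ± 0.377, edgeR adjusted p = 0.528). Of the other genes of catecholamine synthesis and transport, 2 of 5 were tested without the FPKM filter, none was called in males, and Ddc, the decarboxylase that follows Th in dopamine synthesis, was higher in female D2 libraries (+1.29 ± 0.311, adjusted p = 0.0259).

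Pvalb, the calcium buffer of fast-spiking cells, was called lower in D2 in libraries labelled male, without any filter and on few counts. It was not called in those labelled female. In libraries labelled male it was 0.150, 0.335 and 0.467 CPM (lowest, median, highest) in D1 and 0.0305, 0.0690 and 0.272 CPM in D2, where number 3 stood at the top with 11 counts and the others held 1 to 3. The unfiltered fold change was −1.73 ± 0.427 on the log2 scale (edgeR adjusted p = 0.00240; exact permutation p = 0.00433). Libraries labelled female read 0.614, 0.506, 0.325, 0.270 and 0.401 CPM in D1 and 0.390, 0.579, 0.317, 0.0520 and 0.319 CPM in D2 (−0.35 ± 0.324, edgeR adjusted p = 0.653). The difference between the sexes in this fold change did not pass (unfiltered +1.38 ± 0.533, adjusted p = 0.497). Pvalb levels without the 6 libraries against their sex label are given below.

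Lhx6, Kit and Calb2 were not called in either sex, and their ranges overlapped throughout. Lhx6, the lineage factor, lay at 1.20 to 1.74 CPM in male D1 and 0.530 to 2.12 CPM in male D2 libraries (−0.17 ± 0.204, edgeR adjusted p = 0.727), and at −0.37 ± 0.277 in females (0.612). Kit lay at 1.48 to 2.70 and 1.19 to 4.41 CPM in males (+0.06 ± 0.244, adjusted p = 0.930) and at +0.11 ± 0.256 in females (0.909). Calb2 lay at 0.333 to 1.09 and 0.305 to 1.08 CPM in males (unfiltered +0.01 ± 0.216) and at −0.11 ± 0.486 in females (adjusted p = 0.957 without the FPKM filter). Female D2 library number 2 stood high for Sst, Lhx6 and Calb2, and without that library Lhx6 was called lower in D2 (−0.81, edgeR adjusted p = 0.0147).

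By count, 3 of the 10 genes passed the full filters in each sex and all 3 (Sst, Npy and Cck) were called lower in D2, where 9.28% of all genes tested were called in males and 4.51% in females. Without the FPKM filter, 4 of 6 tested were called in males (8.43% of all genes) and 3 of 7 in females (3.54%). Without any filter, 7 of 10 were called in males (3.76% of all genes) and 5 of 10 in females (2.24%). The median log2 fold change of the 10 genes without a filter was −0.66 in both sexes, beside 0.01 over all genes in males and −0.01 in females. In CPM, 3 genes (Sst, Nos1 and Vip) had every male D1 library above every male D2 library and 1 (Th) the reverse, where 2.42% and 1.82% of all genes tested did so. In females these were 3 (Nos1, Cck and Vip) and 0, where 2.28% and 2.08% of all genes did so.

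Removing the 6 libraries labelled male with more Xist than Y-linked counts left 2 D1 and 4 D2 libraries. Sst stayed lower in D2 (−0.91, edgeR adjusted p = 1.16e-04), as did Cck (−2.11, 4.07e-04) and, without the FPKM filter, Nos1 (−0.53, 0.0228). Npy was no longer called (−0.47, adjusted p = 0.439). Vip levels of the remaining libraries were 0.262 and 0.567 CPM in D1 and at most 0.0610 CPM in D2, and Th levels 0.150 and 0.213 CPM in D1 and 0.404 to 0.520 CPM in D2. Pvalb levels were 0.150 and 0.355 CPM in D1 and 0.0305 to 0.272 CPM in D2, with overlap. Lhx6 (−0.03, edgeR adjusted p = 0.982) and Kit (+0.09, 0.948) stayed uncalled without the FPKM filter. Calb2 lay at 0.861 and 0.957 CPM in D1 and 0.305 to 1.08 CPM in D2.

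**Figure D2:**
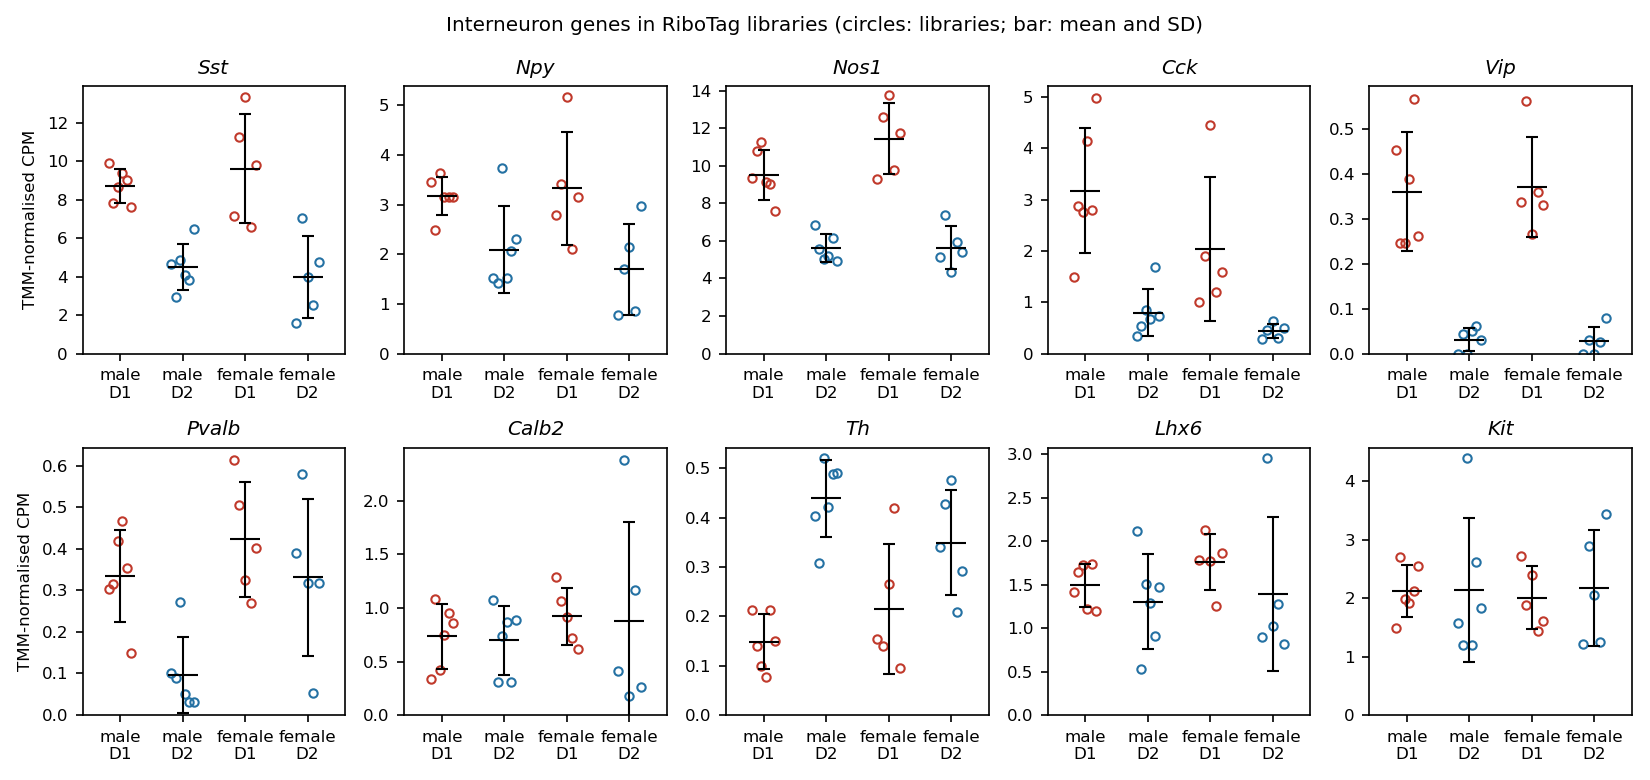
TMM-normalised CPM of the 10 interneuron genes in RiboTag libraries, 1 circle a library, with bars for the mean and SD, by sex label (male n = 6 and 6, female n = 5 and 5) and cell type (D1 red, D2 blue). Nos1 and Vip are separated in both sexes, Sst in males and Cck in females, Th lies higher in male D2 libraries, and Lhx6, Kit and Calb2 overlap.

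The nuclear libraries, which sample RNA before export, gave a partly different picture. Sst was again lower in D2, by more than in RiboTag libraries, and whether Npy was called lower depended on the filter, the tool and single libraries. Sst held 42.7, 29.2, 6.11, 5.87, 26.7 and 26.8 CPM in the 6 D1 libraries and 1.81, 3.86, 2.37, 1.68 and 3.29 CPM in the 5 D2 libraries. The groups did not overlap, and the log2 fold change was −1.93 ± 0.373 (edgeR adjusted p = 0.00810) with the filters of the study and −3.15 ± 0.532 (0.00494) without the FPKM filter. Npy held 23.6, 7.63, 4.48, 8.32, 28.6 and 13.5 CPM in D1 and 2.97, 3.53, 2.74, 2.84 and 3.62 CPM in D2, again apart. Its log2 fold change was −0.91 ± 0.313 with the filters (edgeR adjusted p = 0.0554, not called; 0.0193 to 0.0489 without D1 number 2, 3 or 4, and 0.0369 under DESeq2) and −2.17 ± 0.449 without the FPKM filter (0.00561).

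Nos1, Th, Kit and Calb2 lay higher in nuclear D2 libraries in CPM. These values include background, which on library totals was also higher in nuclear D2. With background subtracted and no FPKM filter, Kit (+0.77, edgeR adjusted p = 0.0190) and Calb2 (+1.65, 0.0278) were called higher in D2. Nos1 lay at 37.9 to 71.3 CPM in nuclear D1 and 71.1 to 91.0 CPM in nuclear D2 libraries and was called higher in D2 without the FPKM filter (+0.57 ± 0.179, edgeR adjusted p = 0.0335). That call held with background subtracted. It was lost without any of D1 numbers 1, 2, 4 and 5 or D2 numbers 1, 3, 5 and 7 (adjusted p from 0.0533 to 0.0812). As a ratio to background Nos1 leaned the other way, with overlap, at 2.47 to 21.9 times in D1 (median 5.81) and 2.07 to 3.19 times in D2 (median 2.48). So did Kit, with medians of 5.64 in D1 and 2.10 in D2, Calb2 (2.96 and 2.23) and Th (2.53 and 2.43), all with overlap. Lhx6 (7.92 and 2.14) and Pvalb (4.90 and 2.35) also had the lower median in D2 on this scale, with overlap. Th lay at 0.789 to 13.7 CPM in D1 and 14.3 to 20.6 CPM in D2, Kit at 16.6 to 26.8 and 28.3 to 32.9 CPM, and Calb2 at 1.90 to 9.75 and 11.2 to 17.3 CPM. These 3 did not overlap and fell just short of the call (edgeR adjusted p = 0.0719, 0.0513 and 0.0504), and all 3 were called when D1 number 3 (0.0272, 0.0241 and 0.0173) or D1 number 6 (0.0480, 0.0276 and 0.0491) was left out. Pvalb (+0.68), Lhx6 (+0.21) and Vip (−0.67) were not called either. Under DESeq2, without the FPKM filter, Pvalb (+1.00, adjusted p = 0.0106), Lhx6 (+0.54, 0.0158), Th (0.0190), Kit (1.59e-04) and Calb2 (0.00604) were called higher in D2. In edgeR scaled to shared MSN genes these 5 were called too (adjusted p from 0.0335 to 0.0381), with Pvalb at +1.98 and Lhx6 at +1.61. Shared MSN genes were themselves lower in nuclear D2, so that scaling raises all genes in D2 and cannot decide these calls. Cck, which passed the filters, was not called with them (−0.08, edgeR adjusted p = 0.918) or without the FPKM filter (−1.39, 0.102), and it spread from 1.66 to 27.4 CPM within D1.

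In nuclei, 1 of the 3 genes that passed all filters was called (17.8% of all genes tested), and 3 of 10 without the FPKM filter (24.8%). The latter count became 7 of 10 without D1 number 3 and 6 of 10 without D1 number 6. The share of all genes called in those left-out fits is not given, so these counts cannot be set against it. A pair of genes, Sst and Npy, had all D1 libraries above all D2 libraries, as 13.6% of all genes did, and 3 the reverse, as 15.2% did. The median log2 fold change over all genes was 0.09 with the filters and 0.38 without the FPKM filter, and that of the 10 genes 0.35. Shared MSN genes moved with Sst and Npy: all 6 were lower in nuclear D2 libraries without the FPKM filter, Ppp1r1b at −3.19. The 10 genes summed to 1.96 to 2.98 times background in nuclear D2 and 2.604 to 35.1 times in nuclear D1 libraries. Slc17a7 lay at 19.9 to 158 CPM in D1 and 11.8 to 26.8 CPM in D2. The 5 oligodendrocyte markers summed to 480 to 1558 CPM in nuclear D1 and 180 to 454 CPM in nuclear D2 libraries, and the 5 astrocyte markers to 154 to 335 and 105 to 135 CPM, both without overlap. The 4 endothelial markers went the other way, at 15.8 to 87.56 CPM in D1 and 87.54 to 112 CPM in D2. The part of these shifts in the Sst and Npy results was not tested.

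None of the 10 genes was called between whole cell D1 and D2 libraries. Sst and Cck alone passed the filters of the study, at −0.35 ± 1.07 (edgeR adjusted p = 0.959) and −0.25 ± 0.712 (0.955), where 1.49% of all genes were called. The other 8, tested without the FPKM filter, ranged from −0.56 ± 0.599 for Pvalb to +0.26 ± 0.284 for Th, where 0.102% of all genes were called (35 of 34270, with 2124 at an unadjusted p under 0.05). Without any filter 0 of 10 were called, as were 0.0684% of all genes. None of the 10 had groups that did not overlap (0.516% of all genes had D1 above D2 and 0.178% the reverse). Sst ranged from 0.424 to 1.12 CPM in D1 and from 0 to 1.70 CPM in D2, and its standard error exceeded its RiboTag male fold change of −0.95. For Cck and Vip (−0.14 ± 0.825) the standard error was smaller than the RiboTag fold changes. Their whole cell counts were, however, at medians of 2.68 and 0.83 times background. A small standard error therefore cannot show that a difference as large as in RiboTag would have been seen. The same libraries held Drd1 at −5.06 and Drd2 at +5.22, larger than the nuclear (−1.78 and +1.72) and RiboTag male (−1.94 and +2.71) values of these receptors.

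**Figure D3:**
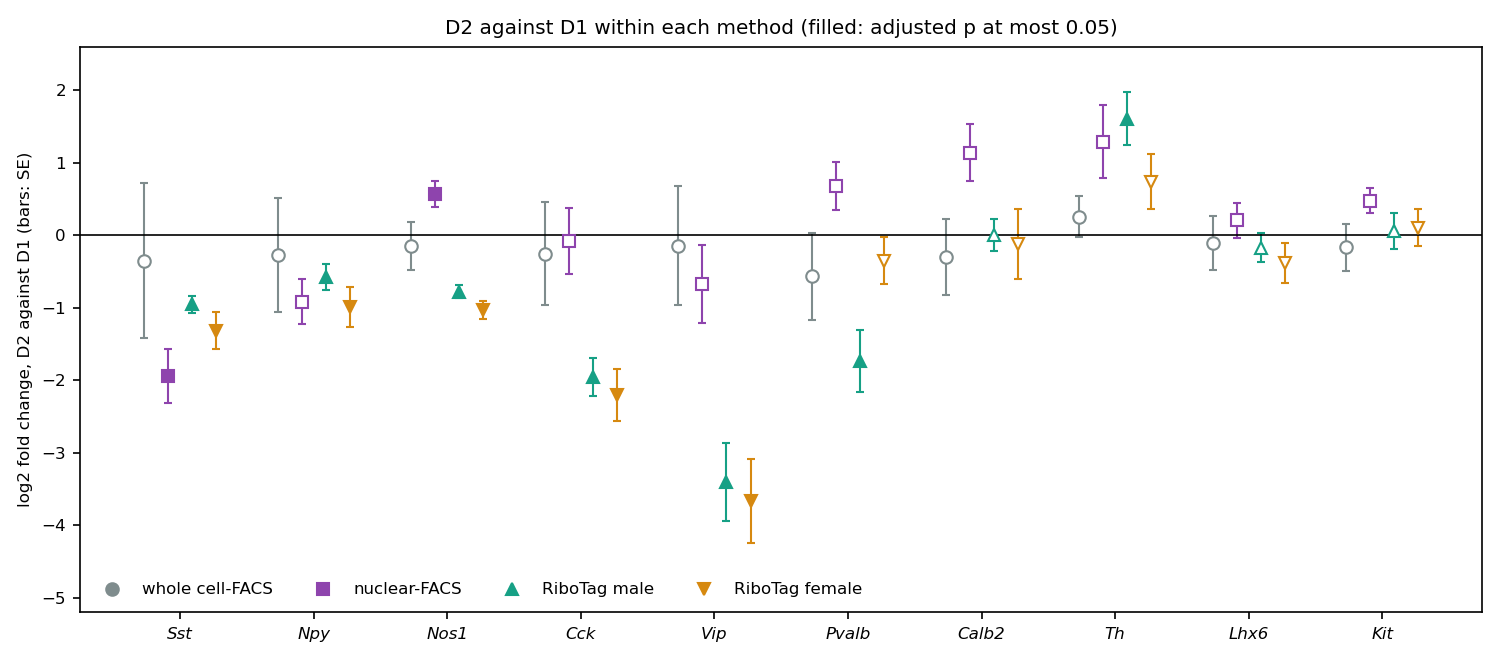
Log2 fold change of D2 against D1 (bars, SE) for the 10 genes in whole cell-FACS, nuclear-FACS, RiboTag male and RiboTag female libraries, from the fit with the filters of the study or, for genes that did not pass them, without the FPKM filter or without any filter, and filled where the adjusted p is at most 0.05. RiboTag points for Sst, Npy, Nos1, Cck and Vip lie below 0 in both sexes, nuclear Sst lies at −1.93, nuclear Nos1 lies above 0, and no whole cell point is filled.

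Whether the D2 minus D1 difference itself changed with the method was tested in a fit of all libraries labelled male. Between nuclear and whole cell libraries it differed for Sst (−2.89 ± 0.697, edgeR adjusted p = 0.00239) and Npy (−1.97 ± 0.732, 0.0463), where 23.3% of all genes were called. Between RiboTag and nuclear libraries it differed for Sst (+2.20 ± 0.608, adjusted p = 0.0118), Nos1 (−1.35 ± 0.378, 0.0126) and Pvalb (−2.48 ± 0.814, 0.0339), where 13.9% of all genes were called. Sst was thus lower in D2 by less in RiboTag than in nuclei, and Nos1 and Pvalb, lower in RiboTag D2, leaned higher in nuclear D2 in CPM. Against background, however, both had the lower median in nuclear D2, with overlap. Between RiboTag and whole cell libraries none of the 10 was called (0.0993% of all genes were), and Vip had the lowest p (−3.41 ± 1.07, edgeR adjusted p = 0.454). Without a filter on low counts, 2, 0 and 3 of the 10 were called in these comparisons (23.6%, 0.0733% and 6.9% of all genes). These fits share the whole cell, nuclear and RiboTag libraries with each other and with the comparisons above. Without the 6 RiboTag libraries that went against their sex label, 1 gene stayed called between nuclear and whole cell libraries and 0 between RiboTag and nuclear libraries, and leaving out any 1 of the nuclear D2 libraries (numbers 1, 2, 3, 5 and 7) also left 1 gene between nuclear and whole cell.

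Levels between methods depended on the scaling, since RiboTag spent most of its counts on few genes. With TMM over all male libraries the median gene stood −2.45 on the log2 scale in RiboTag against whole cell libraries and −2.76 against nuclear libraries, and −0.08 between nuclear and whole cell. Against whole cell libraries 6 of the 10 genes were called in RiboTag, where 86.7% of all genes were. Sst was higher by 6.87 ± 0.371 (edgeR adjusted p = 6.57e-19) and Npy by 3.80 ± 0.379 (1.30e-11), or 9.32 and 6.25 above the median gene. Sst stayed higher under all 5 alternatives of scaling and filter, down to 3.16 with library totals, while the Npy call was lost with library totals (0.08, edgeR adjusted p = 0.850). Cck was higher by 2.57 ± 0.397, but not called when scaled to shared MSN genes (0.84, 0.0901) and −1.04 with library totals, and Lhx6 by 1.11 ± 0.210, but −0.57 when scaled to shared MSN genes and −2.63 with library totals. Pvalb was lower by −1.12 ± 0.388 and Th by −2.59 ± 0.281, and Th alone lay below the median gene (−0.14). Pvalb was not called without the 6 libraries against their sex label (−1.08, edgeR adjusted p = 0.0740) or with background subtracted (−0.80, 0.129).

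Nuclear libraries exceeded whole cell libraries in 4 of the 10 genes (16.7% of all genes were called): Sst at +4.08 ± 0.343, Npy at +2.08 ± 0.366, Cck at +1.49 ± 0.390 and Lhx6 at +0.64 ± 0.211 (edgeR adjusted p from 5.46e-12 to 0.0293). The Cck call was lost with scaling to shared MSN genes (1.11, adjusted p = 0.161) and library totals (0.92, 0.108). The Lhx6 call was lost without nuclear D2 number 5 (0.0517), under DESeq2 (0.0535), and in edgeR with DESeq2 size factors (0.0710), shared MSN genes (0.46, 0.645) and library totals (0.18, 0.709). In RiboTag against nuclear libraries 8 genes were called (89.2% of all genes were). Sst (+2.78), Npy (+1.72), Cck (+1.07) and Lhx6 (+0.47) were higher, though with library totals they read −0.28, −1.37, −1.96 and −2.81, and with scaling to shared MSN genes Cck and Lhx6 read −0.26 and −1.03 and Npy was not called (0.30, edgeR adjusted p = 0.557). The Cck call was also lost under DESeq2 (0.70, adjusted p = 0.102) and in edgeR with background subtracted (0.67, 0.206), and that of Lhx6 under DESeq2 (0.03, 0.926) and in edgeR with background subtracted (0.32, 0.382) and with the replicate block (0.49, 0.0551). Pvalb (−1.63), Th (−2.33), Kit (−0.54) and Vip (−1.17) were lower. Kit and Vip were not called without the 6 libraries against their sex label (edgeR adjusted p = 0.355 and 0.225), Lhx6 without any 1 of the nuclear D2 libraries (0.0510 to 0.0753), and Vip without nuclear D2 number 1, 2, 3 or 5 (0.0611 to 0.0656), with background subtracted (−0.09, 0.956) or without a filter on low counts (0.0739). Relative to the median gene, all 10 lay higher in RiboTag than in nuclear libraries, from 0.42 for Th to 5.54 for Sst, but Th read −0.14 with library totals. Without a filter on low counts, 4 of the 10 genes were called between nuclear and whole cell (19.2% of all genes), 6 between RiboTag and whole cell (65.8%) and 7 between RiboTag and nuclear libraries (73.4%).

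Sex was compared in the 22 RiboTag libraries. None of the 3 genes that passed the filters was called by edgeR (6 of 7184 genes were, 0.0835%, with 612 at an unadjusted p under 0.05). Sst differed by −0.02 ± 0.154 and Npy by −0.12 ± 0.182 in female against male labels. Cck leaned lower in females at −0.74 ± 0.265 (edgeR adjusted p = 0.407), and it was called at −0.98 (0.0465) when female D1 number 4, with the highest female Cck, was left out. Without a filter Cck (−0.75, edgeR adjusted p = 1.21e-06) and Pvalb (+0.99, 0.0320) were called. Cck had nearly the same fold change under the filters at an adjusted p of 0.407, so unfiltered and filtered adjusted p-values cannot be compared. Without the 6 libraries against their sex label none of the 3 was called, with Cck at −0.94 (adjusted p = 0.459). The D2 minus D1 difference of no gene of the 3 differed by sex (Sst −0.37 ± 0.308, Npy −0.41 ± 0.364, Cck −0.25 ± 0.528, edgeR adjusted p from 0.852 to 0.962, with 0 of all genes called and 510 at an unadjusted p under 0.05).

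Other genes of interneurons were read from lists, tested without the FPKM filter, where 8.43% of all genes were called in males and 3.54% in females. Of 9 lineage factors 4 were tested in males and 2 were lower in D2, among them Satb1 (−1.07 ± 0.117, edgeR adjusted p = 6.86e-07), a transcription factor of migrating interneurons. In females 5 were tested and 2 were lower, among them Maf (−1.35 ± 0.292). Of 14 other interneuron genes 7 were tested in each sex. In males 4 were lower: the fast potassium channels Kcnc2 (−0.74) and Kcnc1 (−0.26), the neuregulin receptor Erbb4 (−0.50) and the extracellular protein Reln (−0.48). In females Reln (−0.72) and Erbb4 (−0.57) were lower, and none of those tested was called higher in either sex. The median log2 fold change was −0.89 over the lineage factors and −0.37 over the other interneuron genes in males, and −0.72 and −0.23 in females, beside 0.00 over all genes in males.

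GABA synthesis and transport genes are shared by all GABA neurons, MSNs included. Of Gad1, Gad2 and Slc32a1, the vesicular transporter Slc32a1 was higher in male D2 libraries (+0.24 ± 0.0589, edgeR adjusted p = 0.00946) and the synthesis enzyme Gad1 in female D2 libraries (+0.18 ± 0.0466, 0.0377). In nuclear libraries all 3 were lower in D2, with Slc32a1 at −1.67 under the filters of the study. Of 14 other interneuron genes in nuclei, Lamp5 (−1.54), Kcnc1 (−1.07), Nxph1 (−0.82) and Erbb4 (−0.68) were lower and Pthlh (+1.33) was higher, all without the FPKM filter. Of the catecholamine genes, Gch1, which makes the cofactor of Th, was higher in nuclear D2 (+2.05 ± 0.680).

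Receptors and targets of the members' products moved in both directions. The nitric oxide-gated guanylyl cyclase subunits Gucy1a1 and Gucy1b1 were higher in D2 in males (+0.92 and +0.44) and females (+1.18 and +0.48). The somatostatin receptor Sstr2 was lower in male D2 libraries (−1.92 ± 0.221, edgeR adjusted p = 1.54e-06), as were the cholecystokinin receptor Cckbr (−0.98) and the Kit ligand Kitl (−0.32), among 9 of 16 tested. In females Sstr4 was lower (−1.82), among 10 tested. Whole cell libraries held 2 calls among 8 tested with the full filters, Gucy1a1 higher in D2 (+1.22 ± 0.192, adjusted p = 0.00277) and the neuropeptide Y receptor Npy1r lower (−1.07 ± 0.238, 0.0366). In nuclei Gucy1b1 was lower in D2 (−0.57) and Sstr2 higher (+1.21) under the full filters, and Gucy1b1 (−1.75), Gucy1a1 (−1.33) and Gucy1a2 (−0.74) were lower without the FPKM filter.

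Markers of other cell types also differed between D1 and D2 RiboTag libraries. The cholinergic interneuron genes Chat and Slc5a7 were higher in D2 in males (+2.42 and +2.81) and females (+1.92 and +2.28). The 5 cholinergic markers summed to 0.700 to 1.63 CPM in male D1 against 4.65 to 6.04 CPM in male D2, and to 0.730 to 1.39 against 2.78 to 7.99 CPM in females. Endothelial markers summed to 0.599 to 1.79 CPM in male D1 and 0.244 to 0.521 CPM in male D2, and to 0.798 to 2.83 and 0.340 to 0.640 CPM in females. Astrocyte markers, in contrast, summed to 2.39 to 4.21 CPM in male D1 and 2.53 to 3.94 CPM in male D2 libraries. The part of these cells in the interneuron results was not tested.

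Libraries also varied within a group, and some genes varied together. Correlations were taken over the 22 RiboTag libraries on a log scale after removing each group's mean, as a description, since libraries of a group share preparation and depth. Sst went with Npy (Pearson r = 0.74), Npy with Kit (0.75), Lhx6 with Calb2 (0.73) and Sst with Lhx6 (0.59). Cck went with Slc17a7 (0.80) and with Neurod6 (0.79), both markers of cortical glutamatergic neurons, as did Npy with Slc17a7 (0.70) and Kit with Slc17a7 (0.57). Sst (0.25) and Nos1 (−0.32) did so weakly or inversely, and Nos1 ran against Ppp1r1b (−0.60). In the 14 whole cell libraries many of the 10 genes went together, such as Lhx6 with Th (0.95) and Nos1 with Kit (0.91), and they ran against Ppp1r1b (Th −0.90, Kit −0.88, Nos1 −0.78). Their median ratios to background there were only 1.74 for Lhx6, 2.36 for Th, 2.32 for Nos1 and 1.83 for Kit. The background itself ran from 0.0646 to 0.412 CPM per kilobase between these libraries. Its part in these correlations was not tested.

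**Figure D4:**
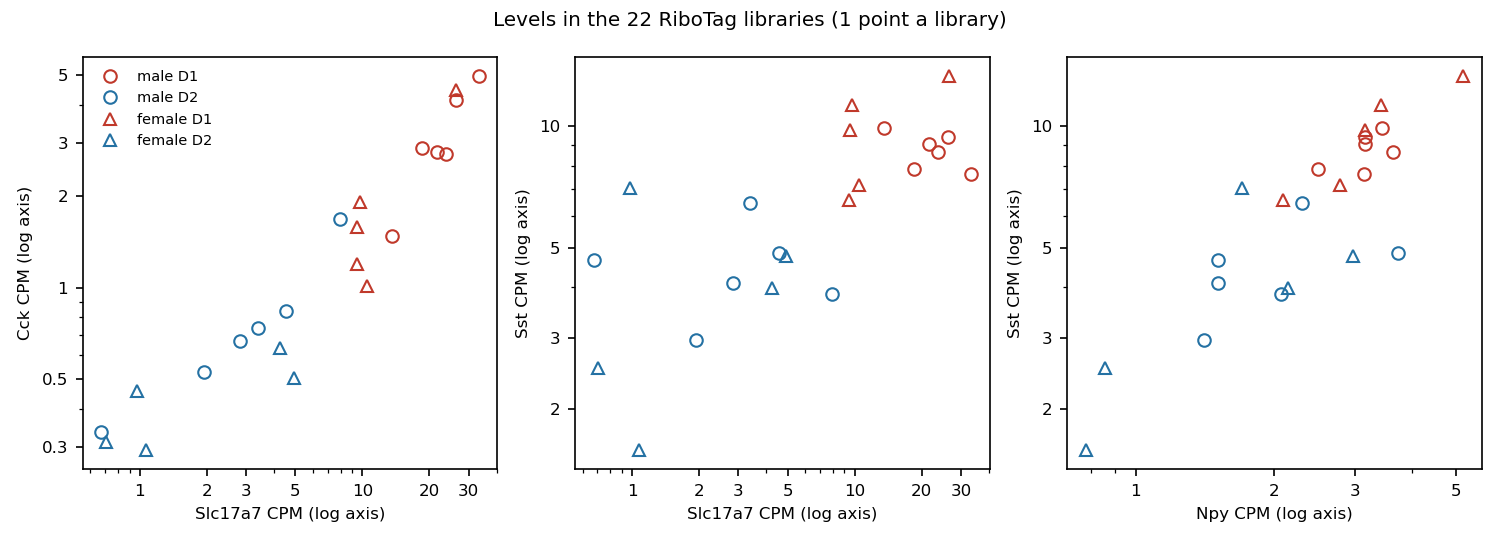
Levels in the 22 RiboTag libraries in CPM on log axes, 1 point a library (circles male, triangles female, D1 red, D2 blue), for Cck against Slc17a7, Sst against Slc17a7 and Sst against Npy. Cck rises with Slc17a7 also inside groups (r = 0.80 after removing group means), Sst hardly does (0.25), and Sst rises with Npy (0.74).

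Of the 7184 genes tested over the RiboTag libraries, those most like Sst by the same measure included Nrip3 (r = 0.83) and Ccdc136 (0.78). Those most like Npy were Gmppa (0.77), Lgi2 (0.76) and Ube2ql1 (0.75). Those most like Cck were 2610203C22Rik (0.92), Vxn (0.91) and Pgm2l1 (0.89). In the 14 whole cell libraries Sst was most like Gm5248 (0.96) and Cck most like Tmem37 (0.97). Sst held 0 to 20 counts in these libraries and Cck 0 to 130, with 3 and 1 of the 6 D2 libraries at 0.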

How the data were processed

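RNA of NAc D1- and D2-MSNs isolated by whole cell-FACS, nuclear-FACS or RiboTag was sequenced after ribosomal depletion. The authors aligned reads with HISAT2 2.0.5 to GRCm38 and deposited raw fragment counts per gene from featureCounts, over whole gene bodies, without strand and without multi-mapping fragments. All 49 columns were used; a column named as a repeat of whole cell D1 number 1 and a second lane of D2 number 3 were summed with their namesakes, leaving 47 libraries (8 whole cell D1 and 6 D2). The series design gives 9 and 7, and the titles 8 and 8. The repeat column differed from its namesake beyond counting noise (chi-square per degree of freedom 6.90, against 1.04 between the lanes and 21.7 to 71.4 against other D1 libraries), so whether it is a separate mouse is not settled; kept apart or left out, 0 of the 10 genes were called, as in the comparison reported. RiboTag female and nuclear D2 columns were mapped to groups, not to single samples. Totals were 3701255 to 68777008 counts; p-values measure the spread between these libraries.

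Counts were tested with edgeR 4.0.16 in R 4.3.3 (quasi-likelihood, TMM, Benjamini-Hochberg, call at an adjusted p of at most 0.05). Genes needed an FPM (fragments scaled to library total) over 1 in 2 libraries, then an FPKM, computed here on the gene span, of 1 in 1 library and at most 50000 in all, or 0.1 in 2 libraries for RiboTag. Most of the 10 genes failed the FPKM filter, so fits without it, or without any filter, were added after the data were seen. Adjusted p-values of fits without any filter cannot be compared with those of filtered fits. Methods were compared without the FPKM filter. Standard errors are the log2 fold change over the square root of F. Log2 values for correlations used a prior count of 1. The scripts were tested on simulated data. DESeq2 1.42.0, other scalings, filters, background subtraction, a replicate block and left-out libraries were alternatives. All 10 genes are described, and called members of the other lists are named, up to 5 a list. The members and lists were chosen with earlier results of these data known. Some genes of the other lists are not reported here.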

Additional observations from a re-analysis of the deposited data

Results flagged for a closer look

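In 5 of the 80 gene and group combinations with 4 to 10 libraries, 1 library lay far from the others by Dixon's criterion, about the 1 in 20 that chance gives. These were Pvalb in RiboTag male D2 number 3 (0.272 CPM), Lhx6 in RiboTag female D2 number 2 (2.96 CPM), Vip in whole cell D2 number 4 (7.10 CPM), Vip in nuclear D2 number 7 (0.658 CPM) and Cck in RiboTag female D1 number 4 (4.46 CPM).

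The D2 minus D1 difference depended on the method, by edgeR interaction terms, for 4 genes. Between nuclear and whole cell libraries it differed by −2.89 for Sst and −1.97 for Npy on the log2 scale, where 23.3% of all genes were called. Between RiboTag and nuclear libraries it differed by 2.20 for Sst, −1.35 for Nos1 and −2.48 for Pvalb, where 13.9% of all genes were called. All of these involve the nuclear D2 libraries, in which shared MSN genes were also lower, and the part of that shift in the differences was not tested.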

How the results depend on the processing

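Of the single-gene values under alternatives, 966 stayed on their side of the threshold, 54 gained a call and 62 lost it. A further 11 reversed direction with a call in either fit. The 966 include values that changed sign without a call in either fit, 20 of them apart from fits with left-out libraries. Of the counts of called genes, 237 stayed within 1.5 times and 37 moved. Causes were not tested. The share of all genes called is given above for the reported fits and those without a filter, not for the other alternatives. In nuclei the count of 1 became 2 under DESeq2 and with background subtracted, 0 with the replicate block, 3 without the FPKM filter, 4 without any filter and 5 where exon bases served as the length, and 1 to 2 with single libraries left out. Without the FPKM filter the nuclear count of 3 became 8 under DESeq2, 7 with DESeq2 size factors or scaling to shared MSN genes, 5 with background subtracted, 0 with the replicate block, and 2 to 7 with libraries left out. Scaling to shared MSN genes raises all genes in nuclear D2 libraries, where those genes were lower. RiboTag counts became 7 (male, from 3 or 4) and 5 (female, from 3) without any filter. Nuclear against whole cell fell from 4 to 2 with scaling to shared MSN genes or library totals, and RiboTag against nuclear from 8 to 5 with background subtracted. Method dependence between nuclear and whole cell (2) became 6 with shared MSN genes or library totals, 1 with background subtracted, 1 without the libraries against their label and 1 with any nuclear D2 library left out. That between RiboTag and nuclear (3) became 5 with shared MSN genes, 1 with background subtracted and 0 without the libraries against their label. For sex (0) it became 2 without a filter and 0 to 1 with libraries left out.

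Reversed against whole cell libraries were Nos1 (−1.496 with shared MSN genes, −3.56 with library totals), Lhx6 (−0.57, −2.63) and Cck (−1.04 with totals). Reversed against nuclear libraries were Sst (−0.28) and Npy (−1.37) with totals, Lhx6 (−1.03, −2.81) and Cck (−0.26, −1.96). Replicate numbers did not pair the libraries: 1 of 4 nuclear, 2 of 6 whole cell, 2 of 6 RiboTag male and 1 of 4 RiboTag female pairs correlated above 0.1. With the replicate block nuclear Sst was −1.94 (edgeR adjusted p = 0.145) and nuclear Nos1 0.69 (0.0995). Few counts limit Vip, Th and Pvalb in RiboTag libraries and Sst in whole cell libraries.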
